A study of Mus musculus with 6 samples.

Results

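The genes described here are those of the vacuolar proton pump and of the intercalated cells of the kidney. They were found by symbol, as the rows whose name starts with Atp6v or Atp6ap, 26 rows, and 12 further genes of acid-base transport, together 38 of the 23282 rows in the table of each library. RNA was measured in whole kidneys of BALB/c and B6 mice, with 3 libraries per strain. The sample titles give the strain and a replicate number, and each replicate is read here as 1 mouse. BALB/c and B6 (C57BL/6) are inbred laboratory strains, and the labels give no genotype, treatment, age or sex beyond strain. Lexogen QuantSeq libraries were sequenced, a method that reads the 3′ ends of polyadenylated transcripts, so a value counts 3′ ends of transcripts. The series concerns strain differences of kidney innate lymphoid cells, and these libraries give the transcripts of the whole organ.

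The vacuolar proton ATPase (V-ATPase) is a rotary pump with a cytosolic sector, V1, that hydrolyses ATP, and a membrane sector, V0, that carries the protons. Every cell uses it to acidify lysosomes and endosomes. Intercalated cells of the collecting duct also place it in the plasma membrane to secrete acid or bicarbonate, with isoforms enriched in them. Alpha intercalated cells secrete protons and return bicarbonate to the blood through the exchanger encoded by Slc4a1, beta intercalated cells secrete bicarbonate through pendrin, encoded by Slc26a4, and carbonic anhydrases supply both ions.

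Values are CPM, counts per unit of library size after a scaling of each library, and the libraries held 8310777 to 10416270 recovered reads in BALB/c and 9047285 to 9766936 in B6. The strains lay apart on the first principal component (45.2% of variance). H2-Ea-ps, an MHC pseudogene transcript used to check the strain labels, had 20, 52 and 34 reads in the BALB/c libraries and 0 in each B6 library. Of the Y-linked genes Ddx3y, Eif2s3y, Kdm5d and Uty, Ddx3y alone had reads, at most 8 in a library. Xist, a transcript of female cells, had 1035 to 1963 reads in each of the 6 libraries, so all 6 had the pattern of female kidneys. The 10 listed markers of intercalated cells were all detected, with a summed level of 743.3 to 831.2 CPM in BALB/c and 810.3 to 886.7 CPM in B6. In whole kidney, fewer cells of a type and less RNA per cell cannot be told apart. The genome used for both strains, mm10, is that of B6 mice, and a loss of reads from BALB/c alleles was not tested.

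Of the 38 rows, 36 passed the filter on low values (a log2(CPM + 1) of at least 1 in at least 3 libraries). Atp6v0c-ps2, a processed pseudogene on chromosome 6 in the annotation, had the same value as Atp6v0c in all 6 libraries. Of its 3′ end sequence words 100% were shared with other transcripts, Atp6v0c and Atp6v0c-ps1, but of the 3′ end words of Atp6v0c 0% were. How these rows were counted is not given in the sources used here. As their values are identical, they are counted once below, which leaves 35 tested members. Atp6ap1l and Atp6v1e2 were not tested. Atp6ap1l had 6 reads in BALB/c replicate 1 and Atp6v1e2 had 4 reads in BALB/c replicate 3, and both had 0 reads in the other libraries of either strain, B6 included.

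A strain difference that passed the test was found in 7 members. In BALB/c kidneys the ammonia channels Rhcg and Rhbg, the pump subunits Atp6v1a and Atp6v1e1 and the carbonic anhydrase Car14 were lower, and the aquaporin Aqp6 and the pump subunit isoform Atp6v0e2 were higher. That is 2 of 35 members higher and 5 lower (limma, Benjamini-Hochberg adjusted p under 0.05 over 13317 genes), where 4.17% of all genes tested were higher and 4.93% lower. The 7 called of 35 stand against 9.09% of all genes tested. Among genes averaging 10 CPM or more, the range of all but 1 tested member, 11.3% were called, 5.09% higher and 6.16% lower. The median log2 fold of the 35 members, BALB/c over B6 on the CPM + 1 scale, was -0.12, against 0.002 over all genes tested. Of the 35 folds 25 were below 0 (71.4%), against 49.6% of all genes tested and 51.7% of those averaging 10 CPM or more. All 3 BALB/c values lay below all 3 B6 values in 14 members (40.0%, against 12.9% of all genes tested) and above them in 3 members (8.57%, against 12.5%). The count of called members was 4 without BALB/c replicate 1, without BALB/c replicate 2 or without B6 replicate 1. A variance prior that does not follow the expression level left 1 member called, Rhcg.

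**Figure D1:**
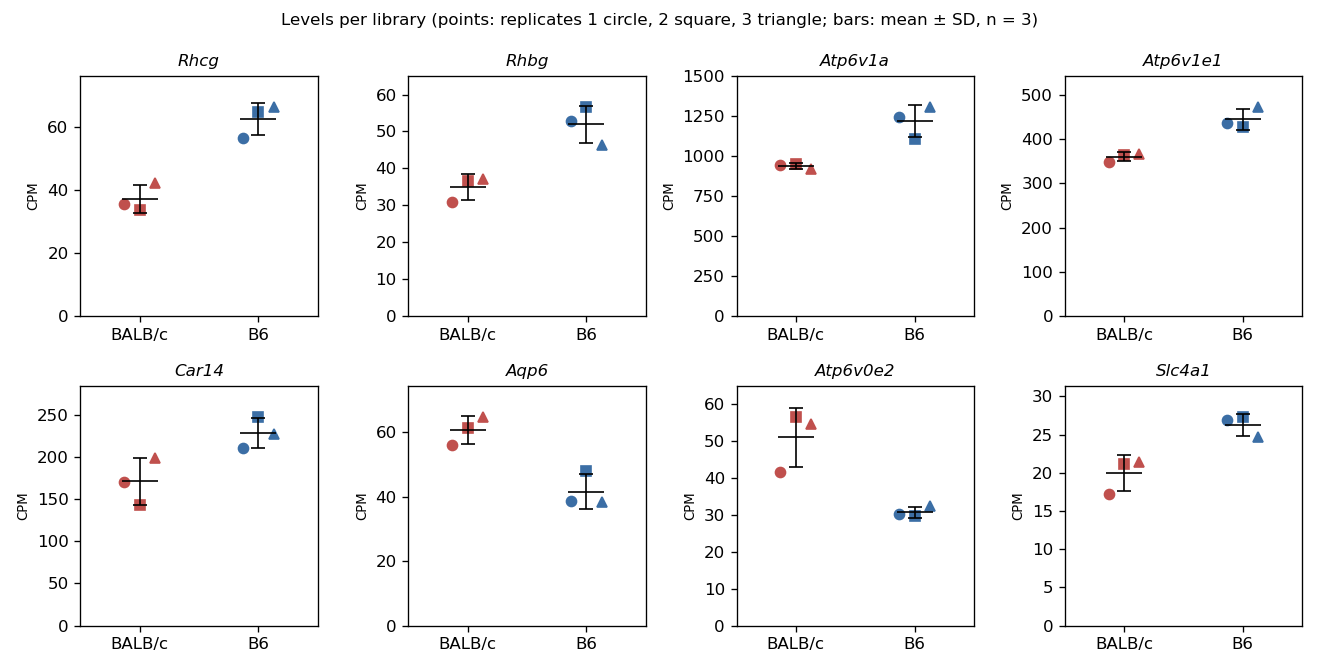
CPM per library of the 7 members that passed the test and of Slc4a1, which did not, with BALB/c left and B6 right; symbols mark the replicate and bars the mean ± SD of 3 mice. Values of the strains do not overlap in any of the 8 panels, with BALB/c above B6 in Aqp6 and Atp6v0e2 and below it in the other 6.

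Rhcg and Rhbg encode channels for ammonia in the membranes of collecting duct and connecting tubule cells, where ammonium leaves the body with secreted acid. Rhcg (chromosome 7, 79593363 to 79617657, minus strand, GRCm38) had 35.4, 33.7 and 42.1 CPM in the BALB/c kidneys and 56.6, 64.7 and 66.1 CPM in the B6 kidneys. Every BALB/c kidney lay below every B6 kidney, and the log2 fold was -0.74 ± 0.14 (SE, limma adjusted p = 8.83e-04), so that Rhcg fell by 40.1% on the CPM + 1 scale. These values rest on 286 to 642 reads per library. Rhcg kept its call in all 16 alternative settings, with an adjusted p of up to 0.0438.

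Rhbg (chromosome 3, 88242874 to 88254709, minus strand), whose product lies in the basolateral membrane, had 30.9, 36.6 and 37.2 CPM in BALB/c and 52.7, 56.6 and 46.4 CPM in B6. The groups again did not overlap, and the log2 fold was -0.56 ± 0.14 (SE, limma adjusted p = 0.0137). Rhbg exons overlap those of Gm38392 on the same strand, but the words of its 3′ end, the part these libraries read, were shared with no other transcript (0%). Rhbg was no longer called with BALB/c replicate 1 left out (adjusted p = 0.0843 by limma), nor without B6 replicate 1 (0.0671) or B6 replicate 2 (0.0583). Both ammonia channels of the set were thus called in the same direction, and their summed level was 66.3 to 79.3 CPM in BALB/c and 109.3 to 121.3 CPM in B6.

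Aqp6 encodes a water channel family member that sits in intracellular vesicles of alpha intercalated cells together with the V-ATPase. It lies on chromosome 15 (99601400 to 99605477, plus strand) and had 55.9, 61.2 and 64.7 CPM in BALB/c against 38.5, 47.8 and 38.3 CPM in B6. The lowest BALB/c kidney was above the highest B6 kidney, and the log2 fold came to 0.54 ± 0.14 (SE; adjusted p = 0.0130, limma). Aqp6 was not called without BALB/c replicate 2 (a limma adjusted p at the threshold of 0.05), BALB/c replicate 3 (0.0604), B6 replicate 1 (0.0758) or B6 replicate 3 (0.0522).

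The anion exchanger genes did not pass the test. Slc4a1, which encodes the band 3 anion exchanger of alpha intercalated cells and of red blood cells, had 17.2, 21.1 and 21.4 CPM in BALB/c and 26.9, 27.3 and 24.7 CPM in B6. All BALB/c values were below all B6 values, but the log2 fold of -0.39 ± 0.18 had a limma adjusted p of 0.206 (unadjusted p = 0.0408). Erythroid transcripts were also lower in BALB/c replicates 1 and 2. The 11 erythroid markers in the files summed to 3216, 2958 and 5372 CPM in BALB/c and 5564, 4613 and 5644 CPM in B6, none was at 0 in all libraries, and the globin gene Hbb-bs fell by 0.64 on the log2 scale (limma adjusted p = 0.00279), a call that ended without B6 replicate 1 (0.0513), with no filter beyond 1 read (0.0657), with robust variances (0.197) and without a variance trend (0.179). Hbb-bs was the 1 gene called of 9 tested erythroid markers, where 9.09% of all genes tested were called. Of the 9 folds 7 were below 0 and 2 above, Slc25a37 at 0.34 and Bpgm at 0.19. Hbb-bs shares 37.3% of its 3′ end sequence words with Hbb-bt. Its values overlapped between the strains, and a loss of BALB/c reads against mm10 was not tested for it. The part of erythroid transcripts in the Slc4a1 values was not tested.

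Slc26a4, the pendrin gene of beta intercalated cells, had 46.4, 55.2 and 49.7 CPM in BALB/c and 49.7, 61.4 and 54.0 CPM in B6. The groups overlapped, the log2 fold was -0.12 ± 0.13 (limma adjusted p = 0.675), and its 95% interval ran from -0.40 to 0.16. The transcription factor Foxi1, which is needed for intercalated cells to form, had 15.8, 15.4 and 18.3 CPM in BALB/c and 14.5, 20.8 and 17.6 CPM in B6. Its log2 fold was -0.08 with an interval of -0.51 to 0.35, and these values overlapped as well. Hmx2, a homeobox factor gene, had 14.1, 13.1 and 11.025 CPM in BALB/c and 17.3, 14.4 and 14.8 CPM in B6, without overlap between the strains, and its log2 fold was -0.27 (adjusted p = 0.540, limma). With at most 206 reads per library for Foxi1 and 157 for Hmx2, intervals of these factors were wide.

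**Figure D2:**
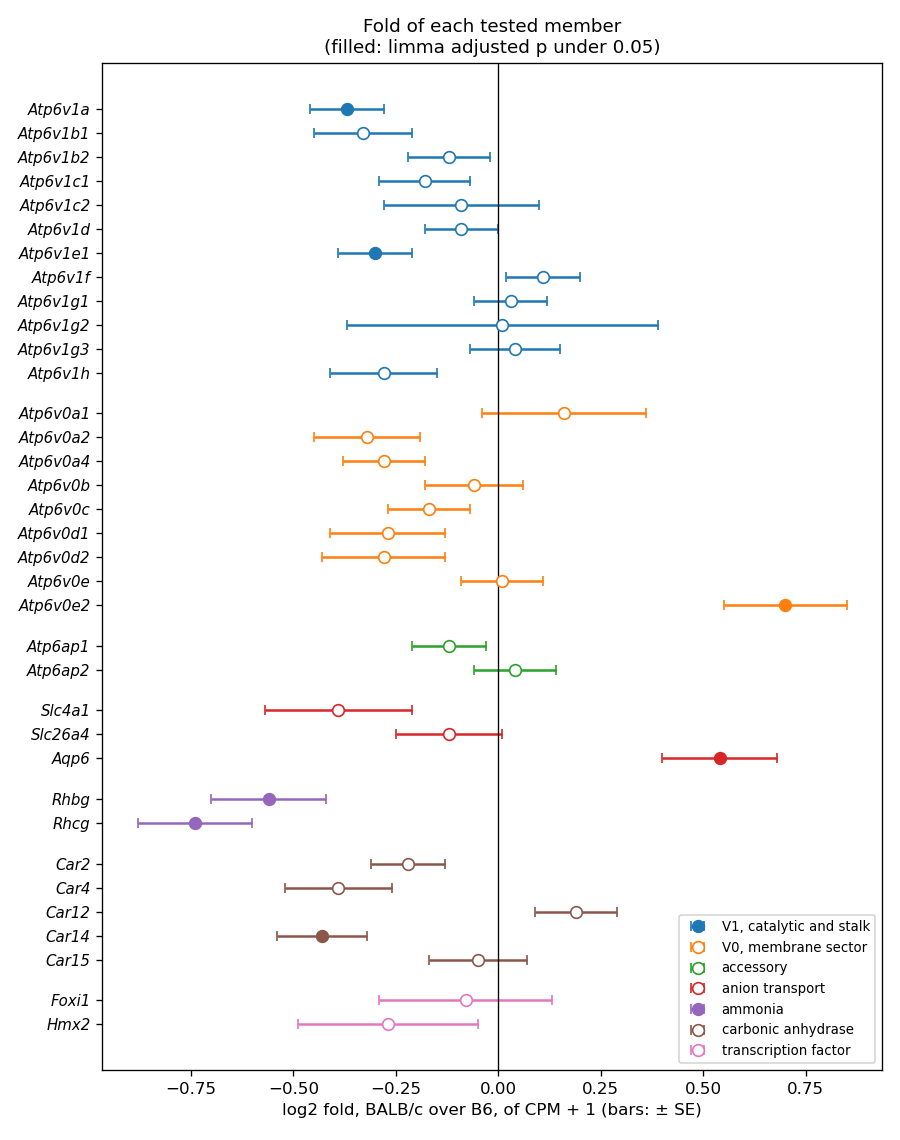
Log2 fold of BALB/c over B6 on the CPM + 1 scale (x axis, bars ± SE of the limma fit, n = 3 mice per strain) for the 35 tested members, grouped and coloured by role; filled points passed the test. Folds run from -0.74 (Rhcg) to 0.70 (Atp6v0e2), and 25 of 35 points lie left of 0, where 49.6% of all genes tested do.

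In the V1 sector 2 of 12 tested subunit genes were lower in BALB/c and 0 higher, and the median log2 fold was -0.11. Called were thus 16.7%, against 9.09% of all genes tested and 11.3% of those averaging 10 CPM or more. By unadjusted p, 4 of the 12 were under 0.05. Every called gene also has an unadjusted p under 0.05, so at least 9.09% of all genes tested reach that level. The exact share was not counted, but it lies well above this floor. In the Benjamini-Hochberg adjustment, unadjusted p divided by adjusted p is close to the share of genes with a p that small. Kcnj1, for 1, had a limma p of 0.0488 unadjusted and 0.23 adjusted. These limits hold for all counts by unadjusted p given below. Atp6v1a encodes the catalytic A subunit, where ATP is hydrolysed (chromosome 16, 44085402 to 44139705, minus strand). It had 947.2, 953.8 and 919.96 CPM in BALB/c and 1248, 1111 and 1307 CPM in B6, and the BALB/c kidneys lay close together and below every B6 kidney. The log2 fold was -0.37 ± 0.09 (SE, limma adjusted p = 0.00728), and the call ended without B6 replicate 1 (0.0534).

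Atp6v1e1, a subunit of the peripheral stalk that holds the stator in place (chromosome 6, 120794305 to 120822793, minus strand), had 348.2, 364.8 and 366.4 CPM in BALB/c and 435.6, 427.2 and 472.1 CPM in B6. The groups did not overlap, and the log2 fold came to -0.30 ± 0.09 (SE; adjusted p = 0.0291, limma). This was the least stable call of the 7. It ended without any 1 of 5 libraries, all but B6 replicate 2, with adjusted p between 0.0557 and 0.144, and with upper quartile scaling (0.0518), no filter beyond 1 read (0.0530) or the replicate number as a block (0.0721). Exons of Atp6v1e1 overlap those of Slc25a18 on the opposite strand, and whether strand was used in counting is not given in the sources used here.

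Atp6v1b1 encodes the B subunit isoform of intercalated cells, and its loss in humans causes distal renal tubular acidosis. It had 63.3, 58.0 and 58.7 CPM in BALB/c against 79.6, 73.1 and 73.9 CPM in B6, so that the strains did not overlap, but with a log2 fold of -0.33 ± 0.12 it did not pass (limma adjusted p = 0.0947, 95% interval -0.57 to -0.08). Its broadly used relative Atp6v1b2 had 373.0, 302.6 and 376.4 CPM in BALB/c and 432.5, 354.8 and 358.0 CPM in B6, which overlapped (log2 fold -0.12, limma adjusted p = 0.553). The G subunit isoform of intercalated cells, Atp6v1g3, had 216.1, 269.2 and 205.5 CPM in BALB/c and 225.6, 200.7 and 242.9 CPM in B6. These overlap throughout, and the fold of 0.04 had an interval of -0.19 to 0.27. Atp6v1c2, an isoform of the C subunit that joins the sectors, had 16.5, 23.5 and 20.9 CPM in BALB/c and 23.2, 20.6 and 20.7 CPM in B6, also with overlap (log2 fold -0.09, limma adjusted p = 0.848). Pdia6 exons overlap it on the opposite strand.

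The remaining V1 genes had log2 folds of -0.28 (Atp6v1h, unadjusted p = 0.0441), -0.18 (Atp6v1c1), -0.09 (Atp6v1d), 0.01 (Atp6v1g2), 0.03 (Atp6v1g1) and 0.11 (Atp6v1f), and none passed the test. Atp6v1f, a subunit of the central rotor, was the member of this sector that lay above B6 in every BALB/c kidney, with 884.9, 787.5 and 800.2 CPM in BALB/c and 768.1, 743.95 and 780.4 CPM in B6 (limma adjusted p = 0.530). Atp6v1g2, the G isoform known from neurons, rested on 10 to 29 reads per library. Summed over the 13 V1 genes, the level was 3480, 3373 and 3377 CPM in BALB/c and 3882, 3593 and 3907 CPM in B6.

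In the V0 sector 1 of the 9 subunit genes in the set was higher, Atp6v0e2, and 0 were lower, with a median log2 fold of -0.17. That is 11.1% called, near the 9.09% of all genes tested and the 11.3% of those averaging 10 CPM or more. Atp6v0e2 encodes an isoform of the small membrane subunit e (chromosome 6, 48537615 to 48541801, plus strand). It had 41.7, 56.6 and 54.7 CPM in BALB/c and 30.2, 29.6 and 32.4 CPM in B6. Each BALB/c kidney exceeded each B6 kidney, and the log2 fold was 0.70 ± 0.15 (SE, limma adjusted p = 0.00348), a change of 62.6% on the CPM + 1 scale. Leaving out any single library kept this call (adjusted p up to 0.0319), and a prior without trend ended it (0.0627). The other e isoform, Atp6v0e, had 219.9, 217.4 and 239.0 CPM in BALB/c and 207.4, 234.1 and 230.8 CPM in B6, with a log2 fold of 0.01 and an interval of -0.19 to 0.21.

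The a subunits steer the pump to its membrane, and a4, encoded by Atp6v0a4, is an isoform enriched in intercalated cells. Atp6v0a4 (chromosome 6, 38048483 to 38124586, minus strand) had 297.4, 317.5 and 331.2 CPM in BALB/c and 340.3, 412.6 and 396.3 CPM in B6. The groups did not overlap, but the log2 fold of -0.28 ± 0.10 had a limma adjusted p of 0.0739, which became 0.0481 without B6 replicate 1. Exons of Atp6v0a4 overlap those of D630045J12Rik on the same strand and of Tmem213 on the opposite strand. The words of its 3′ end were shared with no other transcript (0%). Atp6v0a2 likewise lay below B6 in every BALB/c kidney, at a log2 fold of -0.32 (adjusted p = 0.149, limma), whereas Atp6v0a1 had a fold of 0.16 with overlap (limma adjusted p = 0.708).

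Atp6v0d2, an isoform of the subunit that links rotor and membrane ring, is known from intercalated cells, macrophages and osteoclasts. It had 33.0, 42.7 and 46.2 CPM in BALB/c and 51.5, 45.1 and 50.4 CPM in B6, which overlapped (log2 fold -0.28, limma adjusted p = 0.294). The 10 macrophage markers summed to 280.5 to 334.8 CPM in BALB/c and 208.5 to 238.9 CPM in B6, none was at 0, and Csf1r, a macrophage growth factor receptor gene, was called higher (log2 fold 0.90, limma adjusted p = 4.28e-05). The list did not move as a whole: 2 of its 10 genes were called, Csf1r and Lyz2, its median log2 fold was 0.06, and 4 folds were below 0, among them C1qb at -0.60 (limma adjusted p = 0.107, all BALB/c values below B6), C1qc at -0.54 and Adgre1 at -0.74. Their part in the Atp6v0d2 values was not tested. Atp6v0d1, the broadly used form, had a fold of -0.27 with no overlap (limma adjusted p = 0.254). The proteolipid genes of the membrane ring, Atp6v0c and Atp6v0b, had folds of -0.17 and -0.06 and overlapped.

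The accessory subunits, Atp6ap1 and the prorenin receptor gene Atp6ap2, had log2 folds of -0.12 and 0.04, both with overlap (limma adjusted p = 0.512 and 0.886). Over the 5 isoform genes enriched in intercalated cells (Atp6v1b1, Atp6v0a4, Atp6v1g3, Atp6v1c2 and Atp6v0d2), 0 passed limma's test, 2 had an unadjusted p under 0.05, and 4 folds were below 0. By limma-voom on recovered reads 0 of the 5 were called as well. Over all genes tested limma called 9.09%. The sum of these 5 genes was 626.3, 710.9 and 662.6 CPM in BALB/c and 720.2, 752.0 and 784.2 CPM in B6.

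These 5 isoforms, and Atp6v0e2, which is not on the list of isoforms enriched in intercalated cells, were also set against another isoform of the same subunit inside each library, as the difference of log2(CPM + 1) values, for 6 pairs. With 3 mice per strain an exact two-sided permutation test cannot give a p under 0.1, and after Benjamini-Hochberg adjustment over the 6 pairs none of the p-values was below 0.4. Atp6v0e2 minus Atp6v0e was -2.37, -1.92 and -2.11 in BALB/c and -2.74, -2.94 and -2.80 in B6, and every BALB/c value was above every B6 value. The strain difference was 0.69 (exact permutation p = 0.1). For Atp6v1b1 minus Atp6v1b2 the values were -2.54, -2.36 and -2.66 in BALB/c and -2.43, -2.26 and -2.26 in B6, which overlapped and differed by -0.20 (exact permutation p = 0.2). The difference between strains was -0.44 for Atp6v0a4 minus Atp6v0a1 (exact permutation p = 0.2), and it was 0.09, -0.01 and 0.01 for the pairs of C, d and G subunits.

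**Figure D3:**
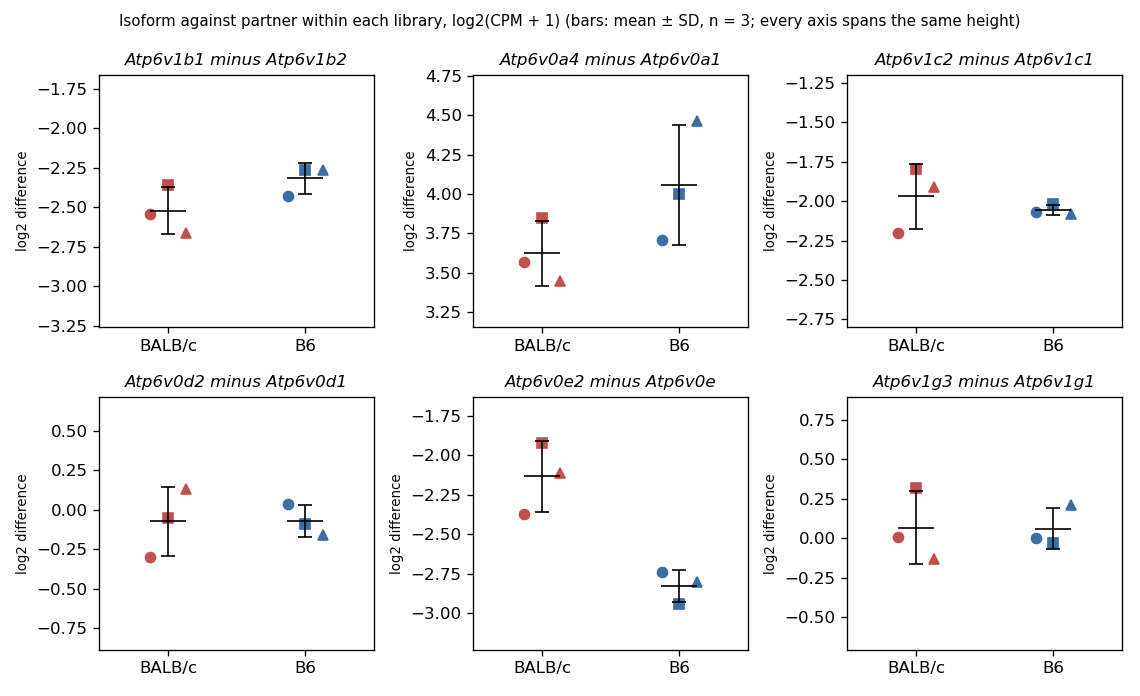
Difference of log2(CPM + 1) between a pump isoform and its partner within each library (y axis), BALB/c left and B6 right, with bars for the mean ± SD of 3 mice. Atp6v0e2 minus Atp6v0e separates the strains by 0.69, while the other 5 pairs overlap.

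Of the 5 carbonic anhydrase genes in the set, 1 was lower in BALB/c and 0 were higher. This 1 called of 5 stands against 9.09% of all genes tested and 11.3% of those averaging 10 CPM or more. Car14, a membrane-bound form known from proximal tubule and thin limb cells (chromosome 3, 95897768 to 95904691, minus strand), had 170.4, 143.6 and 199.4 CPM in BALB/c and 211.3, 247.7 and 227.0 CPM in B6. The groups did not overlap, and the log2 fold was -0.43 ± 0.11 (SE, limma adjusted p = 0.0162). Leaving out BALB/c replicate 1 (limma adjusted p = 0.0648) or BALB/c replicate 2 (0.138) ended the call, as did no filter beyond 1 read (0.0702). Aph1a exons overlap it on the opposite strand.

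Car4, a membrane-anchored form of the proximal brush border, had 110.7, 81.6 and 102.0 CPM in BALB/c and 115.5, 119.0 and 152.4 CPM in B6, and its log2 fold was -0.39 ± 0.13 (adjusted p by limma 0.0584, and 0.0408 without B6 replicate 2). Car2, the cytosolic form of intercalated and other tubule cells and of red cells, had 310.3, 281.9 and 286.4 CPM in BALB/c and 337.3, 332.6 and 357.1 CPM in B6. Both lay below B6 in every BALB/c kidney without passing the test (Car2 log2 fold -0.22, limma adjusted p = 0.132). Car12 had a fold of 0.19 and Car15 of -0.05, both with overlap (limma adjusted p = 0.285 and 0.874). Car15 shares 98.0% of its 3′ end sequence words with Gm20518, so its reads cannot be assigned with certainty. Of the proximal tubule markers, which include genes of the cells that hold Car4 and Car14, 1 of 8 was higher (Slc5a12, log2 fold 1.22, limma adjusted p = 2.39e-08) and 1 lower (Slc22a8, -0.39, 0.00812, not called without BALB/c replicate 1 or 2 or B6 replicate 1). Called were 25.0% of these markers, against 9.09% of all genes tested. The summed level of the 8 markers was 5767 to 6372 CPM in BALB/c and 6062 to 6365 CPM in B6, and their part in the Car4 and Car14 values was not tested.

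To show the upstream sequence of members that moved in opposite directions, the 250 bases before the RefSeq start site (GRCm38.p6) are printed for Rhcg, lower in BALB/c, for Aqp6 and Atp6v0e2, higher in BALB/c, and for Atp6v1b1, the B isoform of intercalated cells. Capitals mark matches to 3 motifs searched on both strands: CACGTG (E-box), TCACGTGA, the core of the site of the lysosomal regulator TFEB, which contains the E-box, and GTAAACA, bound by forkhead factors such as Foxi1.
Rhcg, chr7:79617658-79617907, minus strand: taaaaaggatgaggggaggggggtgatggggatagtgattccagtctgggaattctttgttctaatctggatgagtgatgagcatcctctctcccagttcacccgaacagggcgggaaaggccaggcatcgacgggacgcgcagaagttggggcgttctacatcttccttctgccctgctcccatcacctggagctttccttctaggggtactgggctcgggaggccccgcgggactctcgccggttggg
Aqp6, chr15:99600950-99601199, plus strand: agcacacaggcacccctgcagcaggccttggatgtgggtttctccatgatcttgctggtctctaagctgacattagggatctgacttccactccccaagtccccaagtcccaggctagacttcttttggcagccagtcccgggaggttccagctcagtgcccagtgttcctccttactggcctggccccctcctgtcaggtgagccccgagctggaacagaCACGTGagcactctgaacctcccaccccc
Atp6v0e2, chr6:48537319-48537568, plus strand: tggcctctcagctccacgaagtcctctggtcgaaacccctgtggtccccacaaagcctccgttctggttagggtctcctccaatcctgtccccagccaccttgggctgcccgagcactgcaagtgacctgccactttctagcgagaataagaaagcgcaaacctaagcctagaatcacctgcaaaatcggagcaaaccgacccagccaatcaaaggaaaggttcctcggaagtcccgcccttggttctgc
Atp6v1b1, chr6:83742767-83743016, plus strand: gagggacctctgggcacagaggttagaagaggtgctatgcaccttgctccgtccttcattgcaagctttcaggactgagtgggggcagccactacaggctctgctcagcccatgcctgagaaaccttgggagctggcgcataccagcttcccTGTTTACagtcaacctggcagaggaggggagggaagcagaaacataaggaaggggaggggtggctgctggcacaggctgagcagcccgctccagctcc
RefSeq promoters were at hand for 27 members. The E-box was found in those of 3 members, Aqp6, Atp6v0b and Atp6v1a, or 9.68% of 31 member promoters, against 6.02% of 32851 promoters of all genes. TCACGTGA was found in Atp6v1a (3.23% of member promoters, 0.785% of all), and the forkhead motif in Atp6v1b1, 98 bases before the start (3.23% and 3.17%). Rhcg and Atp6v0e2 held none of the 3 motifs in this window. A match is a string of letters and not a measured binding site.

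Genes outside the set that act in the same cells or the same chemistry were followed in lists. Over all genes tested 9.09% were called, 4.17% higher and 4.93% lower, which are the shares to set beside each list below. Of 21 tested further intercalated cell genes 5 were lower in BALB/c and 0 higher (23.8% called), with a median log2 fold of -0.24. Limma-voom called 3. Of the 21 folds 6 were above 0, and in Cftr (0.80, limma adjusted p = 0.0539), Slc26a7 (0.70, 0.0809) and P2ry14 (0.76, 0.207) all BALB/c values lay above B6 without passing the test. Atp4a, which encodes the catalytic subunit of a proton-potassium pump that exchanges protons for potassium, had 1.55, 2.36 and 3.61 CPM in BALB/c and 27.4, 29.2 and 22.1 CPM in B6. No BALB/c value came near the B6 values, and the log2 fold was -2.99 ± 0.28 (SE, limma adjusted p = 5.43e-08). The related pump gene Atp12a was below the filter, with 1.74, 2.12 and 0.501 CPM in BALB/c and 0 CPM in each B6 kidney.

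Oxgr1, the receptor for oxoglutarate of beta intercalated cells, had 12.97, 17.2 and 12.9 CPM in BALB/c and 21.0, 33.8 and 31.9 CPM in B6, without overlap, and a log2 fold of -0.94 ± 0.21 (limma adjusted p = 0.00436). Bsnd, which encodes barttin and which thick limb and distal tubule cells also express, had a log2 fold of -0.57 (adjusted p = 0.0390, limma), and the cell adhesion gene Hepacam2, a gene of the list named although 4 others had smaller p-values, had -0.50 (0.0449). Both calls were lost when 1 library was left out. For Bsnd this held for each library but B6 replicate 3, with adjusted p of up to 0.149, and for Hepacam2 for each of the 6, with adjusted p of up to 0.165. Both were also lost with total-read or upper quartile scaling, limma-voom, the replicate block, no filter beyond 1 read and no variance trend (0.051 to 0.078 for Bsnd, 0.0603 to 0.13 for Hepacam2). Slc4a9, the exchanger of beta intercalated cells, had a fold of -0.07 with overlap (limma adjusted p = 0.917).

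Of the tested genes of V-ATPase assembly and regulation, 15 in all, limma and limma-voom called 0, and at an unadjusted p under 0.05 there were 2, Ccdc115 (log2 fold 0.35, limma adjusted p = 0.121) and Tbc1d24 (-0.66 and 0.215). In the family of the lysosomal regulator TFEB 1 of 4 genes was lower, Tfec. It had 11.9, 16.2 and 15.4 CPM in BALB/c and 22.5, 24.9 and 29.7 CPM in B6 (log2 fold -0.79, limma adjusted p = 0.0123). Tfec was not called when BALB/c replicate 1 (0.0710) or B6 replicate 3 (adjusted p = 0.0777 by limma) was left out. Tfeb and Tfe3 had folds of -0.26 and -0.23, and Mitf had 0.35, none of which passed.

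Of 8 tested carbonic anhydrase genes outside the set, 2 were lower. Car8, whose product has no enzymatic activity, had 3.58, 3.66 and 5.31 CPM in BALB/c and 9.58, 13.6 and 9.87 CPM in B6 (log2 fold -1.21 ± 0.29, limma adjusted p = 0.00727). Car3, the muscle and fat form, had 1.74, 1.18 and 5.01 CPM in BALB/c and 4.95, 18.3 and 5.83 CPM in B6, which overlapped, and its call (log2 fold -1.48, limma adjusted p = 0.0275) ended without BALB/c replicate 1 or 2 or B6 replicate 2 (up to 0.204). Without B6 replicate 2, the high one, its log2 fold was -0.95.

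Of 10 genes of ammonia and bicarbonate handling outside intercalated cells, 2 were lower and 0 higher, while 5 folds were below 0 and 5 above. Slc4a5, a sodium bicarbonate cotransporter gene, lay above B6 in every BALB/c kidney (log2 fold 0.91, limma adjusted p = 0.141). The proximal sodium bicarbonate cotransporter gene Slc4a4 had 975.9, 830.2 and 934.1 CPM in BALB/c and 1350.2, 1322 and 1623 CPM in B6, a log2 fold of -0.64 ± 0.10 with no overlap (limma adjusted p = 6.92e-05). Pck1, a gluconeogenic enzyme gene, had 1042, 989.5 and 1261 CPM in BALB/c and 1611, 1732 and 1524 CPM in B6, again with no overlap (log2 fold -0.57, limma adjusted p = 3.39e-04). A variance prior without trend ended both calls (0.0631 for Slc4a4 and 0.0909 for Pck1).

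Neighbouring cells of the nephron were read from marker lists. Of 10 principal cell genes, the other cell type of the collecting duct, limma called 0, 3 were under 0.05 by unadjusted p, and the median log2 fold was -0.10; limma-voom called 0 as well. Their sum ranged from 543.0 to 650.8 CPM in BALB/c and from 457.3 to 897.5 CPM in B6. Of 4 distal convoluted tubule genes 1 was higher and 2 lower, and of 4 thick ascending limb genes limma called 0, with 2 at an unadjusted p under 0.05 and 0 called by limma-voom.

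**Figure D4:**
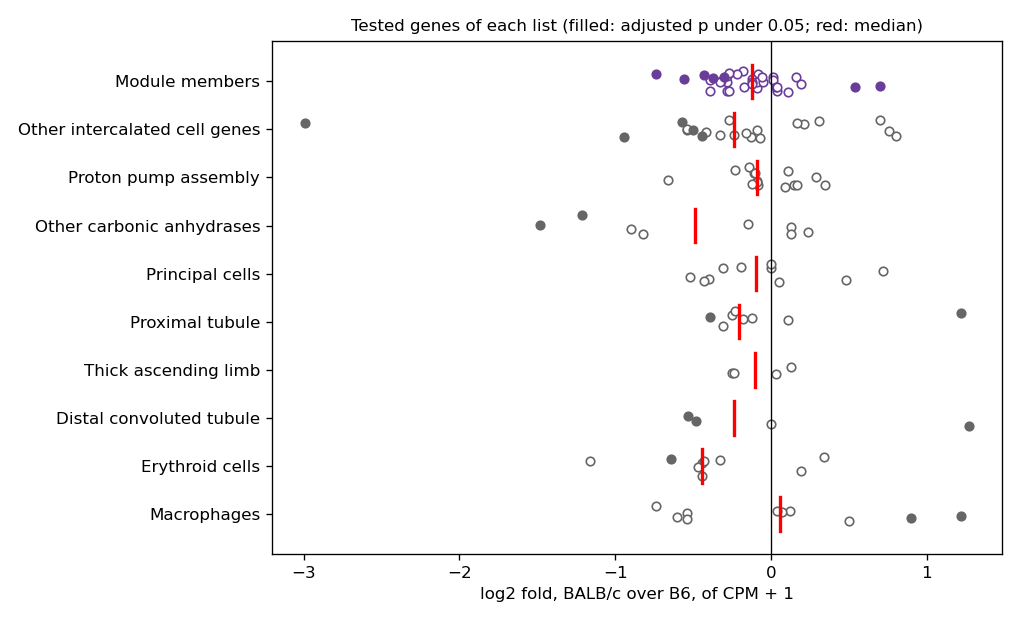
Log2 fold of BALB/c over B6 on the CPM + 1 scale (x axis) for the tested genes of each list (rows), with filled points for an adjusted p under 0.05 and a red line at the list's median; the vertical scatter within a row has no meaning. The members of the set lie between -0.74 and 0.70 with a median of -0.12, and Atp4a at -2.99 is the lowest point among the listed genes.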

How the data were processed

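Polyadenylated RNA of 6 whole kidneys was measured, 3 per strain. The tools named are Bowtie2 and bedtools, with the mm10 build, per the submitters' processing notes. Versions, annotation and strand use were not given in the sources used here. Each library's deposited file holds log2 values, 1 per row (35 symbols stand on several rows, 79 in all); as 2 to that power minus 1 they sum to 980188.4 to 1043599.4 per library, close to CPM, so they were read as log2(CPM + 1) with a further scaling factor per library. Low values (20 reads or fewer) fell on whole reads, within 0.1 read, for 100% of them in each library, and a read was worth 0.0968 to 0.118 CPM. The design allowed for raw counts; the files hold log2 values, so limma 3.58.1 in R 4.3.3 was used, on the deposited values of 13317 genes, with strain as the sole term, a variance prior following the level (18.4 prior and 4 residual degrees of freedom) and Benjamini-Hochberg adjustment over all genes tested; tests were two-sided. Folds on the log2(CPM + 1) scale understate changes of low genes. The replicates are read as separate mice, which the sample titles do not state, and the spread may in part be technical. The fit was tested on simulated reads with the same dispersion for every gene and with changes larger than those of the called members. That test therefore cannot show how reliable the calls of members are.

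The members and gene lists were chosen with earlier results of these data known. All members are accounted for: values per library are given for called members, for isoforms and transporters of intercalated cells, for an abundant ubiquitous member of a sector and for the largest folds, and outside the set for up to 4 called genes of a list; others are given by range. Some listed genes outside the set enter the counts but are not reported here by name. Positions and exon overlaps come from GENCODE M21 (GRCm38), and shared 3′ ends from words of 50 bases taken every 5 bases of the last 300 bases of a transcript. Alternatives were filters, pseudocounts, scalings, variance priors, limma-voom on recovered reads, the replicate block and leaving out each library. The replicate numbers did not pair the libraries.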

Additional observations from a re-analysis of the deposited data

How the results depend on the processing

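The test called 1211 genes and 7 members, and a variance prior without trend called 493 genes and 1 member. Leaving out 1 library at a time gave 797 to 1138 genes and 4 to 7 members. The other settings gave 855 to 1242 genes and 5 to 7 members. Same-numbered libraries of the strains did not deviate together (correlations of 0.012, -0.057 and -0.084), so the number is only a name; with it as a replicate block 977 genes and 6 members were called. Both strain directions of the 7 called members held in all 16 settings. Folds near 0 changed sign when 1 library was left out: over the left-out libraries Atp6v1g3 ranged from -0.08 to 0.12, Foxi1 from -0.20 to 0.04, Atp6v0a1 from -0.01 to 0.27, Atp6v1c2 from -0.20 to 0.04, Car15 from -0.12 to 0.03, Atp6v0e from -0.05 to 0.04, Atp6v1g2 from -0.24 to 0.14, Atp6v0b from -0.17 to 0.10 and Atp6ap2 from -0.05 to 0.11. A pseudocount of 5 CPM put Atp6v1g2 at -0.00081. The cause of these changes was not tested. Atp6v1g2 had the fewest reads of the tested members, 10 to 29 per library.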
